A study of Mus musculus with 8 samples.

Results

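Guide Sa2, the guide RNA directed at miR-128, was examined in the library of Cas9-positive brain nuclei that received it, against the Cas9-positive library whose construct carried no guide. Every amplicon with reads in both libraries was taken, which gave 15 of the 16 amplified loci: miR-128-2 and miR-128-1, miR-124-1, miR-124-2 and miR-124-3, and 10 other genomic sites that the authors named for guides Sa1 or Sa4. None of the 10 was named for Sa2. The remaining site, on chromosome 15, had at least 98.7% of its reads beyond the limit of mutations up to which the authors listed sequences, and was left out. Both libraries came from wild-type C57BL/6 mice whose motor cortex had been injected with AAV vectors (adeno-associated virus, a gene delivery vehicle) coding for CRISPR/Cas9. Tissue was collected and dissociated 4 weeks later, and nuclei were sorted by fluorescence for Cas9. By their labels the groups differ in the construct: with guide Sa2, or without a guide. With 1 library a group, differences in animals, injection, sorting or amplification cannot be told apart from it. The labels give neural cells of brain as the source, and state no sex, age or number of mice; the promoter that drives Cas9 and the sequence of the guide are not given in the sources used here. Amplicons of genomic DNA cannot show which cell types the nuclei came from.

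Each group is 1 library, so the tests below compare the reads of 2 libraries and not the conditions behind them. The file of the Sa2 library held 967265 reads, of which 794105 were used, and that of the library without a guide 816110 reads, of which 701135 were used. Depth by locus ran from 440 reads (chr10-114394356) to 223971 reads (chr3-70303938) with Sa2. Intervals are 95% Wilson intervals for a share and Newcombe intervals for a difference, and they cover counting error only.

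MicroRNAs are cut from hairpin transcripts, and the mature strand guides silencing complexes to messenger RNAs, mainly through its seed, bases 2 to 8 from the 5′ end. miR-128 is a microRNA abundant in neurons of the mammalian brain, made from a pair of unlinked genes whose mature 3′ strand is the same. Cas9 makes a double-strand break where its guide pairs with DNA next to a short motif, and end-joining repair of such breaks leaves small insertions and deletions (indels). The deposited files give no guide sequence, and the cut site was placed 3 bases before the hexamer GTGAAC, a choice made with the observed indels in view.

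The hairpins are shown with the cut site as placed here. In RefSeq's annotation of mouse assembly GRCm38.p6, Mir128-2 spans chr9:112118636-112118711 on the minus strand, inside the protein-coding gene Arpp21 (chr9:112065091-112236288). Mir128-1 spans chr1:128202361-128202430 on the plus strand, inside R3hdm1 (chr1:128103282-128237738). The expected sequence of each amplicon equalled the RefSeq hairpin. The predicted cut falls after base 49 of the miR-128-2 hairpin and after base 45 of the miR-128-1 hairpin, between bases 2 and 3 of the mature strand, which on chromosome 9 is between positions 112118662 and 112118663. Capitals mark mature miR-128-3p in the hairpins and its seed in the mature RNA.
miR-128-2 hairpin: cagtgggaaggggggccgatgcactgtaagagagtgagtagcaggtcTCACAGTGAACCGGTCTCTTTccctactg
miR-128-1 hairpin: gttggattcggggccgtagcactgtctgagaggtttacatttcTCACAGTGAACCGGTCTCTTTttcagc
miR-128-3p: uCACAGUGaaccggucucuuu

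The 27 bases that end with the hexamer are taken as the target, which follows from that placement of the cut and not from a known guide sequence. They differ between the genes at 7 places, shown in capitals below. All 7 lie between positions 4 and 14 from the 5′ end, so that the 4 bases before the cut and the 19 after it are identical.
miR-128-2 target: gagTgAGtAGcaGGtctcacagtgaac
miR-128-1 target: gagAgGTtTAcaTTtctcacagtgaac
The other 14 amplicons, the site on chromosome 15 included, were less like it: at the best place on either strand they differed at 9 to 12 of its 21 bases outside the hexamer.

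With guide Sa2, indels were frequent at miR-128-2 and at the control level at the other 14 loci. The indel share is the number of reads with an inserted or deleted base within 10 bases of the predicted cut, divided by all reads of the locus. At the miR-124 genes and the other sites, that cut was the one placed for the guide they were named for, Sa4 or Sa1. The window at those loci was not placed for Sa2. At miR-128-2 the indel share was 84.3% with Sa2 (53243 of 63144 reads; 84.0 to 84.6%) and 0.017% without a guide (18 of 104478 reads; 0.011 to 0.027%). The difference was 84.3 percentage points (84.0 to 84.6), with an adjusted p at the lower limit of 1e-300 (two-sided Fisher's exact test, Benjamini-Hochberg adjustment over 44 tests of a guide against no guide). To be called, a locus needed an adjusted p under 0.05 and a difference of 0.1 points or more in either direction. Of the 15 loci compared, 1 passed, which is 6.67% of them, and that locus was miR-128-2. With indels counted anywhere in the amplicon, miR-128-2 was again the only locus that passed.

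miR-128-1 makes the same mature strand, and its indel share was 0.073% with Sa2 (43 of 59188 reads; 0.054 to 0.098%) against 0.065% without a guide (37 of 56532 reads; 0.047 to 0.090%). The difference was 0.0072 points, with an interval from -0.024 to 0.038 (Fisher's exact test, adjusted p = 1). At this depth an added share above 0.038 points lies outside the interval. The test does not show that the shares are equal.

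The 3 miR-124 genes encode another microRNA abundant in neurons and were the targets of guide Sa4. For miR-124-1 the counts were 3 of 11290 reads with Sa2 and 6 of 11414 in the control library, which is -0.026 points (-0.091 to 0.033). miR-124-2 had 5 of 26296 reads with Sa2 and 5 of 24430 in the control, which is -0.0015 points (-0.031 to 0.027). miR-124-3 had 0 of 13566 reads with Sa2, which allows a share of up to 0.022%, and 0 of 1122 reads without a guide, which allows up to 0.267%. The adjusted p was 1 at each of these genes (Fisher's exact test).

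Among the 10 other sites, 3 had a higher indel share with Sa2, 5 a lower one and 2 had no indel read in either library. Shares ran from 0% to 0.119% with Sa2 and from 0% to 0.072% without a guide. The highest difference was at chrX-37055312, with 3 of 2529 reads against 2 of 2767 (0.046 points, -0.16 to 0.282). The lowest was at chr17-49055768, with 0 of 14215 reads with Sa2 and 7 of 14612 without a guide (-0.048 points, -0.099 to -0.011; unadjusted p = 0.0157, adjusted p = 0.138, Fisher's exact test). A site on chromosome 2, chr2-134788648, also had an unadjusted p under 0.05, with 8 of 167435 reads against 13 of 107972 (-0.0073 points; adjusted p = 0.315, Fisher's exact test). Only forward reads of chr2-134788648 were used, since its reverse reads were almost all beyond the mutation limit (165556 of 165583 with Sa2). Both sites with an unadjusted p under 0.05 were lower with Sa2 than without a guide.

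Over the 14 loci other than miR-128-2, the differences lay between -0.048 and 0.046 points. The upper bound of the interval was under 0.1 points at 11 of them and reached 0.866 points at the shallowest, chr10-114394356, where 0 of 440 reads with Sa2 and 0 of 845 without a guide carried an indel. Summed over these loci, 198 of 730961 reads with Sa2 carried an indel (0.027%; 0.024 to 0.031%) and 190 of 596657 without a guide (0.032%; 0.028 to 0.037%). Of these few indel reads, 133 of the 198 with Sa2 and 124 of the 190 without a guide belonged to a sequence seen at the same locus in both libraries. Most of them came from chr3-70303938 (65 with Sa2 and 68 without a guide) and miR-128-1 (31 and 28). No other locus gave more than 11 with Sa2 or 8 without a guide, so the sharing rests mainly on those loci.

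**Figure D1:**
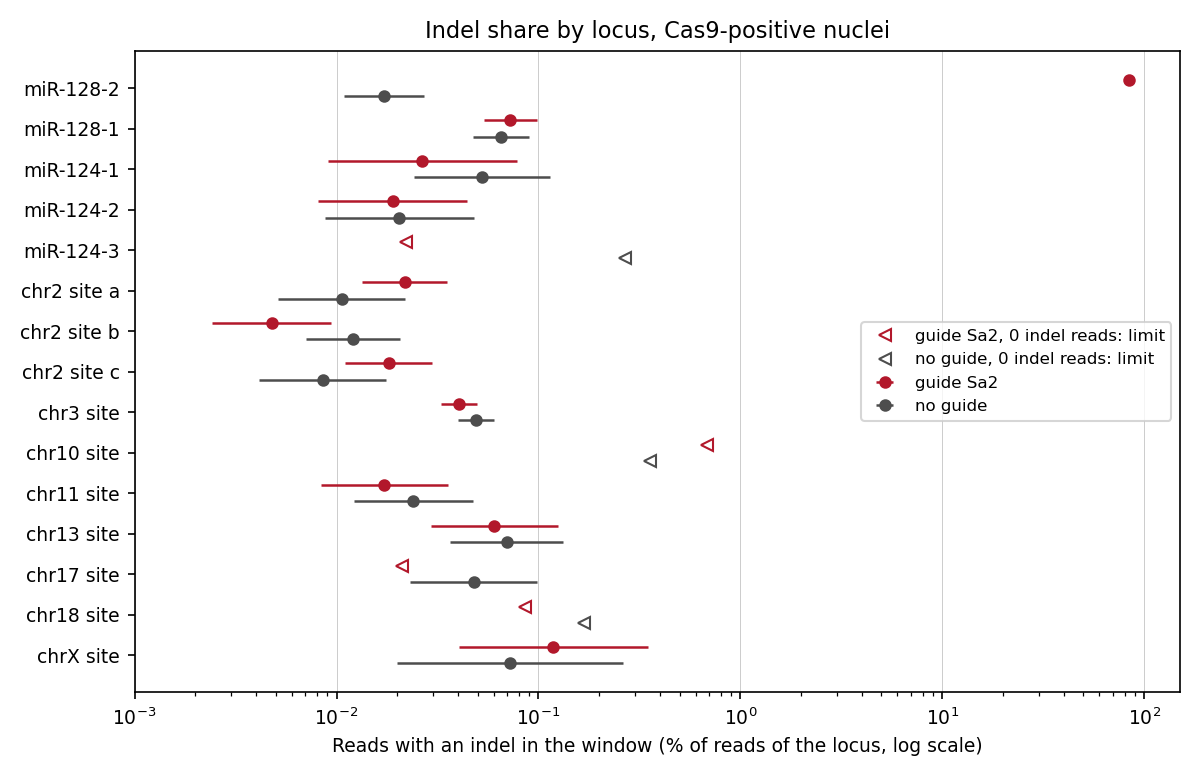
Indel share of each of the 15 loci on a log axis, in percent of the reads of the locus, for the Cas9-positive libraries with guide Sa2 (red) and without a guide (grey). Circles are shares with 95% Wilson intervals, and open triangles mark the limit that 3 reads would make where 0 reads carried an indel. The sites on chromosome 2 are lettered by position. At miR-128-2 the Sa2 library stands at 84.3% and the control at 0.017%; elsewhere no share exceeds 0.119%.

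The other read classes were then set side by side. At miR-128-2, 4.27% of reads were unmutated with Sa2 (4.11 to 4.43%) and 81.7% without a guide (81.5 to 81.9%). Reads with substitutions alone made up 0.781% and 14.4%. No test was run on these classes. Reads beyond the authors' limit, which is 7 mutations for this amplicon, made up 10.6% with Sa2 (10.4 to 10.9%) and 3.77% without a guide (3.65 to 3.88%). The sequences of those reads are not listed, so that an indel in them is not counted. Among the 56437 listed reads of the Sa2 library, the indel share was 94.3% (94.1 to 94.5%). Listed reads with no indel anywhere in the amplicon numbered 3189 with Sa2, and 84.5% of them were unmutated, against 85.0% of 100361 such reads without a guide.

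**Figure D2:**
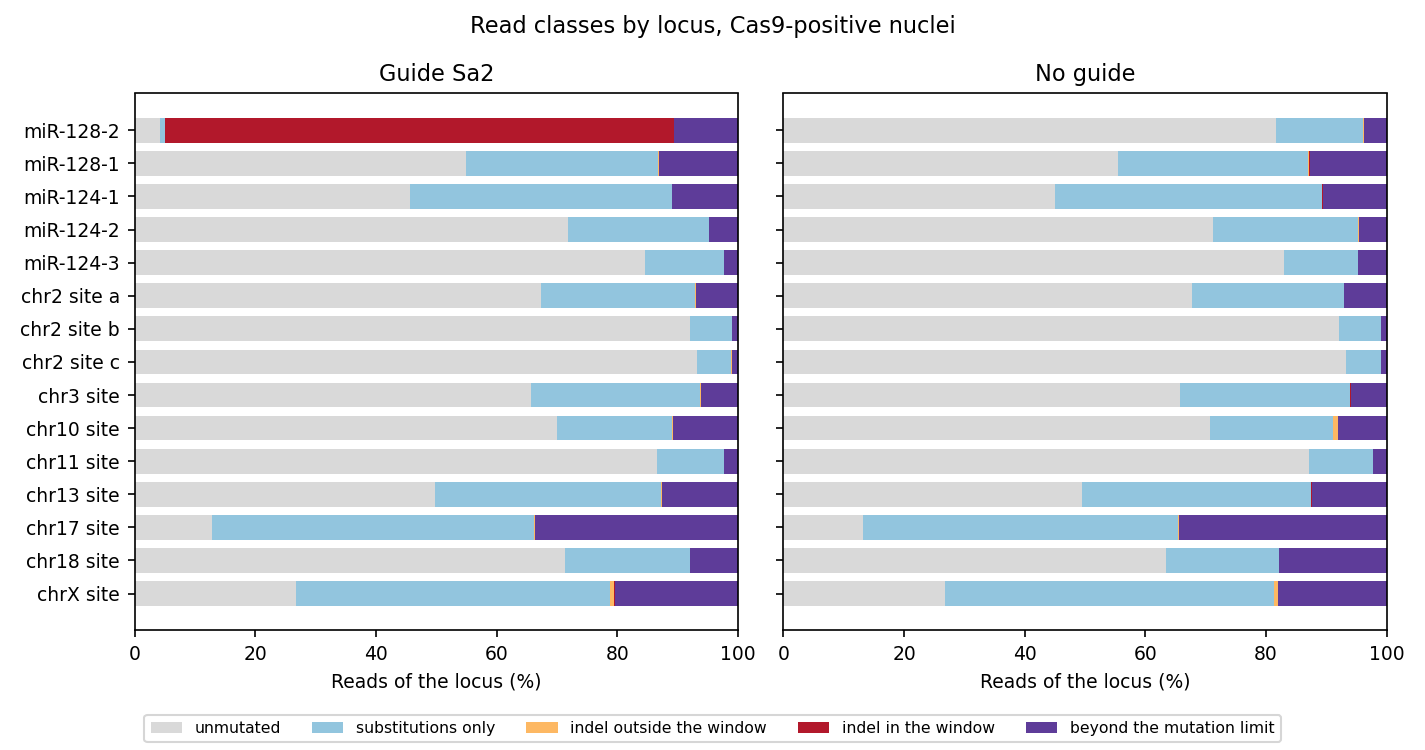
Reads of each locus by class in percent, with guide Sa2 (left) and without a guide (right): unmutated, substitutions only, an indel outside the window, an indel in the window, and more mutations than the authors' limit. The red class fills 84.3% of the bar at miR-128-2 with Sa2 and is hardly visible in any other bar.

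At 13 of the other loci the unmutated share differed by -0.651 to 1.66 points, and the share beyond the limit by -2.40 to 2.63 points. The interval of the latter difference did not reach 0 at miR-124-3, with 2.32% beyond the limit with Sa2 and 4.72% without a guide (-3.83 to -1.28 points), at chrX-37055312, with 20.4% and 17.998% (0.322 to 4.57 points), and at chr3-70303938 (0.026 to 0.322 points). At the remaining locus, chr18-57173043, it was 71.4% with Sa2 and 63.4% without a guide, while reads beyond the limit made up 7.95% and 17.9%. The 5 other libraries without Sa2 had 6.71% to 18.4% beyond the limit at this site, a range that holds both values. Its upper end rests on the Cas9-positive library with guide Sa1, which had 741 reads at this site. The next highest share was 12.2%, in the Cas9-negative library without a guide. Listed indels numbered 0 of 3485 reads with Sa2 and 0 of 1785 reads without a guide there.

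The authors tallied mutations per read by counting each deleted, inserted or substituted base. At miR-128-2 with Sa2, 16.2% of reads had 1 mutation, 16.6% had 2 and 12.6% had 3. Classes 4 and 5 held 2.04% and 1.65%, class 6 held 11.3%, and class 7, the last that is listed, held 24.7% (24.4 to 25.0%). Without a guide the classes fell from 10.6% with 1 mutation to 0.072% with 7. The largest mutated class with Sa2 thus lay at the limit itself, beyond which sequences are not listed. miR-128-1 had nearly the same profile in both libraries, with 54.9% unmutated reads with Sa2 and 55.5% without a guide, and 13.03% and 12.8% beyond the limit.

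**Figure D3:**
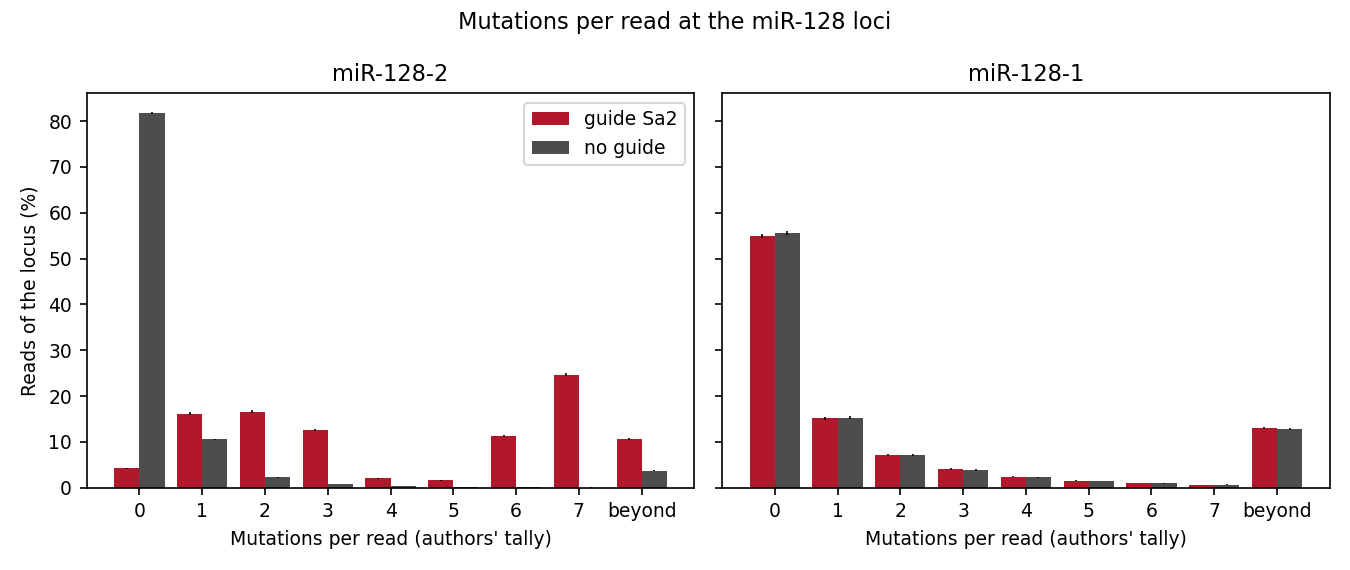
Percent of reads by number of mutations per read, as tallied by the authors, at miR-128-2 (left) and miR-128-1 (right), with guide Sa2 (red) and without a guide (grey); error bars are 95% Wilson intervals and "beyond" is the class above 7. The Sa2 bars at miR-128-2 peak at 7 mutations (24.7%), while at miR-128-1 the bars of both libraries nearly coincide.

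As the authors placed them, deleted bases at miR-128-2 clustered on the 5′ side of the cut. The cut itself was placed with the observed indels in view, so their position relative to it is description only. With Sa2, base 49, the last before the cut, was deleted in 64.2% of all reads, base 48 in 50.7%, base 47 in 51.4% and base 46 in 40.2%. On the other side, base 50 was deleted in 25.0% of reads, base 51 in 19.5% and base 52 in 5.42%. Each of 13 bases, all between bases 42 and 55, was deleted in over 1% of reads. Outside the window no base exceeded 0.065% with Sa2, and without a guide no base of the amplicon exceeded 0.0995%. Insertions also stood at the cut: 2.57% of reads had a base inserted after base 49 and 0.288% after base 50.

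**Figure D4:**
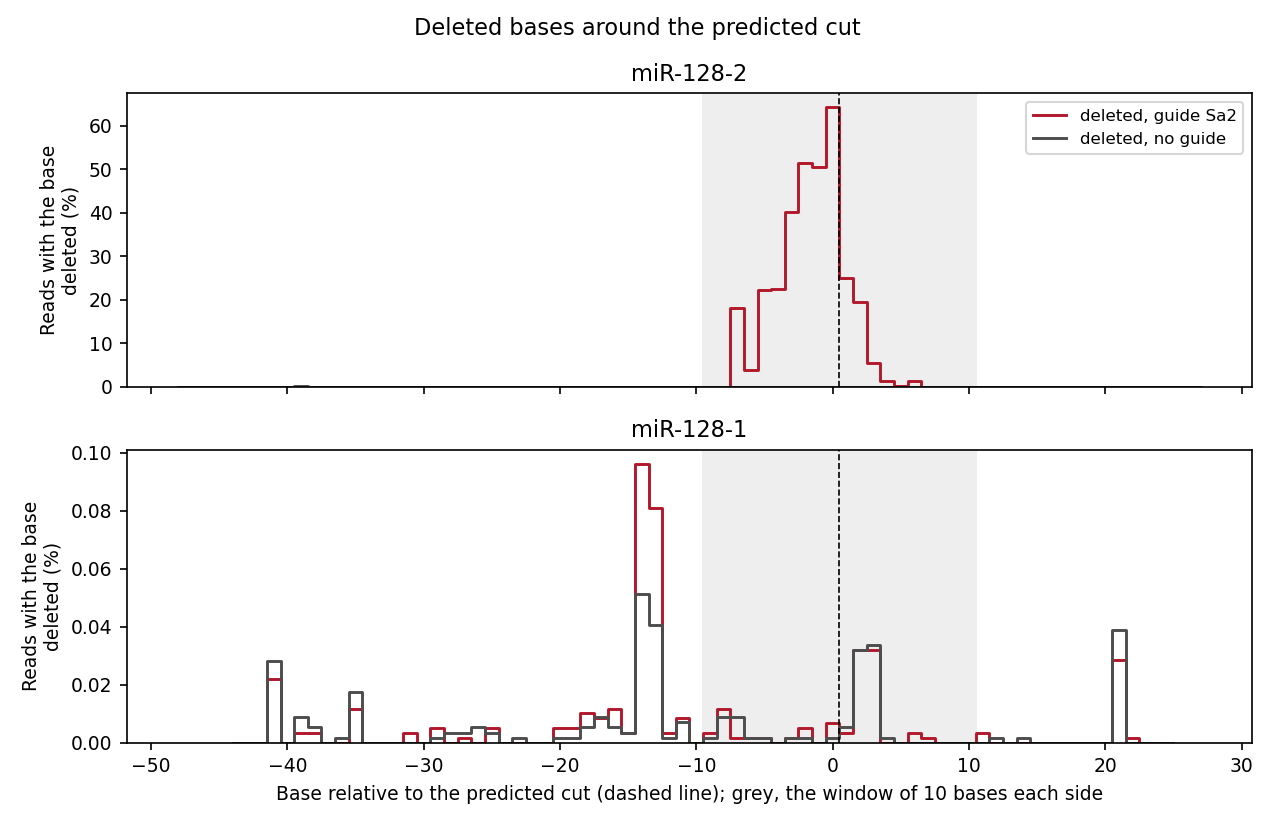
Percent of reads in which each base was deleted, as the authors placed the deletions, against its place relative to the predicted cut, at miR-128-2 (top) and miR-128-1 (bottom), with guide Sa2 (red) and without a guide (grey). The vertical scales differ: the top panel reaches 64.2% at the base before the cut, and the bottom panel 0.096% at a base 14 places before that one, outside the grey window.

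At miR-128-1 the deletions seen were few and mostly outside the window. Base 31, at 14 bases before the base next to the cut, was deleted in 57 of 59188 reads with Sa2 and in 29 of 56532 without a guide, and base 32 in 48 and 23 reads. Counting indels anywhere in the amplicon gave a difference of 0.034 points between the libraries (adjusted p = 0.868, Fisher's exact test). Base 47 was deleted in 19 and 18 reads.

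The Sa2 library held 116 distinct indel alleles at miR-128-2, of which 42 were seen in 1 read. The 12 most frequent made up 98.9% of indel reads, and the 7 most frequent 90.4%. The drop after the leading alleles was steep: allele 12 in order of reads had 324 reads and allele 13 had 75, of which 74 were reverse reads. Deletions (a net loss of bases) made up 96.6% of indel reads (96.5 to 96.8%) and insertions 3.38%.

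The 10 leading alleles are printed with the unedited stretch around the cut, since they show what was lost from the mature strand. Capitals mark the bases that still match mature miR-128-3p when counted back from its 3′ end.
unedited: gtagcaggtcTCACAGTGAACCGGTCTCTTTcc
allele 1: gtagaACAGTGAACCGGTCTCTTTcc
allele 2: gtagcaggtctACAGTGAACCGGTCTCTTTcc
allele 3: gtagcaggAGTGAACCGGTCTCTTTcc
allele 4: gtagcaggtACAGTGAACCGGTCTCTTTcc
allele 5: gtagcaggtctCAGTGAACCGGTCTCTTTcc
allele 6: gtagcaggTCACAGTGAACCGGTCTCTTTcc
allele 7: gtagCACAGTGAACCGGTCTCTTTcc
allele 8: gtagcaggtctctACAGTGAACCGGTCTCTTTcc
allele 9: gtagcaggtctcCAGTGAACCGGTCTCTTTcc
allele 10: gtagcaggtctctAACCGGTCTCTTTcc

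Allele 1 had 9055 reads (17.01% of indel reads, 16.7 to 17.3%). As the authors placed it, it lacked base 42 and bases 44 to 49 and kept the A between them. The same sequence can be read as 8 bases from base 42 replaced by an A. Allele 2 lacked the C at base 49, next to the cut, in 8213 reads (15.4%; 15.1 to 15.7%). Allele 3 lacked 6 bases from base 46 in 8189 reads (15.4%; 15.1 to 15.7%). The leading 3 alleles thus differ in size, at a net loss of 7, 1 and 6 bases, and the intervals of alleles 2 and 3 overlap.

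Allele 4 lacked CTC from base 47 in 7104 reads (13.3%). Alleles 5, 6 and 7 had 5364 reads (10.1%), 5270 reads (9.90%) and 4932 reads (9.26%). In each of these 3 the same 2 bases stand at both edges of the deletion, so that the lost stretch could be placed in more than 1 way. In allele 5 a CA repeat at the cut was shortened, in allele 6 a TC repeat before it, and in allele 7 the lost 7 bases ran from a CA to just before another CA.

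Allele 8 was the leading insertion, a T at the cut, with 1459 reads (2.74%). Allele 9 lacked the A at base 50, on the 3′ side of the cut, in 1205 reads (2.26%). Allele 10, in 784 reads (1.47%), lacked bases 50 to 53 and base 55 and kept the T between them, as the authors placed it. It can also be read as 6 bases from base 50 replaced by a T. Either way most of the seed was removed. Over the leading 12 alleles, the shares among forward and reverse indel reads differed by at most 2.16 points. Alleles 2 and 3 changed order, with 15.6% and 14.3% of forward and 15.3% and 16.5% of reverse indel reads. The indel share of the locus was 82.6% in forward reads (82.2 to 83.0%) and 86.2% in reverse reads (85.8 to 86.6%). Reads beyond the limit made up 12.4% and 8.63%. The cause of this difference was not tested.

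**Figure D5:**
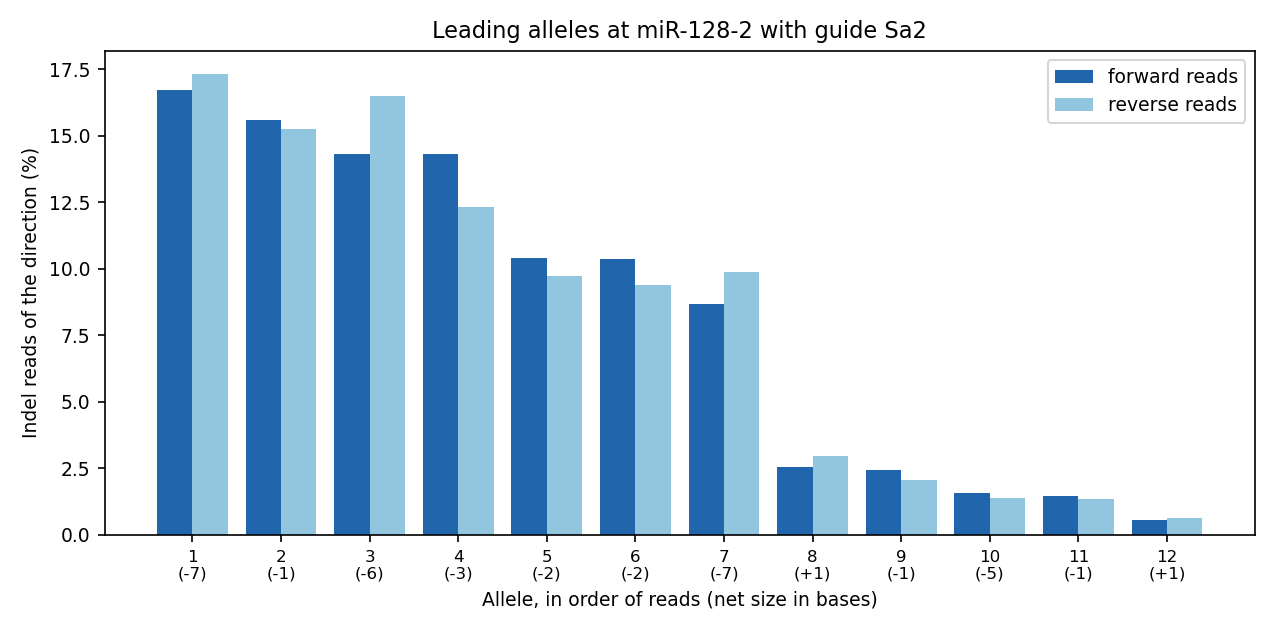
The 12 most frequent indel alleles at miR-128-2 with guide Sa2, with their net size in bases, as percent of the indel reads of the forward (dark) and reverse (light) direction. Alleles 1 to 7 hold from 9.26% to 17.01% of indel reads each, and allele 8 drops to 2.74%.

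Grouped by net size, 26.5% of indel reads had lost 7 bases and 15.5% had lost 6. Shorter losses, of 3, 2 or 1 bases, accounted for 13.6%, 20.3% and 19.2%. Losses of 5 bases (1.503%) and of 4 bases (0.023%) were rare, and a gain of 1 base made up 3.38%. The sizes did not fall off steadily, and the size with most reads is also the longest that the limit of 7 mutations admits. Sizes other than multiples of 3 accounted for 70.8% of indel reads.

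The mature strand was affected to different degrees. In 80.5% of indel reads (80.1 to 80.8%) the seed was changed, as in alleles 1 to 5. In a further 5077 indel reads, or 9.54% (9.29 to 9.79%), the seed was intact and the mature strand as a whole was not. Allele 7, which lacks the base before the seed and keeps 20 of the 21 bases, made up 4932 of these. In 5326 indel reads, or 10.003% (9.75 to 10.3%), the whole mature strand was intact. Allele 6, whose loss leaves the mature strand and shortens the bases before it, made up 5270 of these. Counted over all reads of the locus, 8.43% carried an indel and an intact mature strand.

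Reads that held the complete miR-128-3p sequence, with substitutions taken into account, made up 12.2% at miR-128-2 with Sa2 (11.9 to 12.4%) and 88.3% without a guide (88.1 to 88.5%). The seed was present in 21.2% of reads (20.8 to 21.5%) and in 94.0% (93.9 to 94.2%). The mature 5′ strand, from the other arm of the hairpin, was complete in 86.6% of all reads with Sa2 and 91.7% without a guide. Over listed reads alone the order turned, to 96.9% with Sa2 and 95.3% without a guide. A read that lost 7 bases at the cut is listed only if it has no other mutation. The listed reads of the libraries are therefore not selected alike. At miR-128-1 the complete 3′ strand was found in 74.4% and 74.8% of reads. Reads beyond the limit count here as reads without the sequence, and as such they weigh on all of these shares.

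The leading alleles were then looked for in the other libraries and at the other gene. Without a guide, the Cas9-positive library held 18 indel reads at miR-128-2, of which 3 were allele 5, and alleles 3 and 11 had 1 read each. The Cas9-negative library with Sa2 had 1847 indel reads among 100118 at this locus (1.84%). Of these, 1808 (97.9%) were allele 5, and alleles 1, 3 and 4 had 0 reads there. In the Cas9-positive library with the same guide, allele 5 made up 10.1%. Among the libraries without Sa2, the Cas9-negative one for guide Sa4 stood apart: 305 of its 96117 reads carried an indel here (0.317%), of which 288 (94.4%) were allele 7.

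Of the 12 leading alleles, 10 remove or add bases that miR-128-1 also has at the same place. Allele 5, the loss of CA, was the most frequent window indel at miR-128-1 and was found in 18 reads with Sa2 and 16 without a guide. All 18 were reverse reads. The other 9 had 0 reads at miR-128-1 with Sa2, and without a guide allele 6 had 1 read. The next window alleles at miR-128-1 were the loss of an A at base 31 together with an A further on, with 4 reads against 3, and the loss of the C at base 43 together with the C at base 45, with 3 reads against 0. Forward reads with an indel numbered 4 of 29920 with Sa2 and 0 of 28943 without a guide, and reverse reads 39 of 29268 and 37 of 27589.

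At the miR-124 genes no allele exceeded 4 reads. The leading one at miR-124-2 was the loss of an A at base 63, with 4 reads with Sa2 and 1 without a guide. The only other with Sa2 replaced GCG from base 70 by CGC, in 1 read with Sa2 and 0 without a guide. At miR-124-1 each of the 3 alleles had 1 read: the loss of GT from base 64, of T at base 65 and of A at base 54, which had 1, 0 and 2 reads without a guide.

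Substitutions include errors of amplification and sequencing and were counted apart. In the window at miR-128-2 they stood in 4.90% of reads with Sa2 and 6.26% without a guide, a difference of -1.36 points (-1.58 to -1.14; adjusted p = 1.47e-30, Fisher's exact test, adjustment over 15 loci). A read that lost 7 bases, as 26.5% of indel reads with Sa2 had, is listed only if it has no substitution. A deleted base cannot be substituted either. The test therefore does not compare substitution rates on equal terms at this locus. The difference was -2.88 points with substitutions anywhere in the amplicon and -4.15 points with indel reads left out, where 6707 reads beyond the limit stay in the denominator of the Sa2 library. At miR-128-1 the shares were 12.5% and 12.4%, a difference of 0.039 points (-0.341 to 0.420; adjusted p = 0.905, Fisher's exact test). A lower share also passed at chrX-37055312, with 32.6% against 36.4% (-3.81 points, -6.36 to -1.25; adjusted p = 0.0287, Fisher's exact test). That call was lost with substitutions within 5 bases of the cut, where the difference was -2.74 points (adjusted p = 0.128, Fisher's exact test). The other 13 loci, miR-128-1 among them, differed by -1.20 to 0.526 points.

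Several substitutions depended on the read direction. Among reads without an indel at miR-128-2, A56C (an A at base 56 of the hairpin read as C) was found in 2.61% of forward and 0.065% of reverse reads with Sa2. Without a guide it was found in 2.58% and 0.105%. On reads of allele 3, A57T was found in 392 of 3923 forward reads (9.99%) and 1 of 4266 reverse reads. The same substitution was found in 0.631% of forward reads without an indel in the control library.

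Amplicon depth was uneven. The miR-128-2 amplicon took 7.95% of the used reads with Sa2 and 14.9% without a guide, a ratio of 0.534. Of the other loci, 13 had ratios between 0.460 and 1.72, with 1 below that of miR-128-2, and miR-124-3 had a ratio of 10.7. Per read of miR-128-1 there were 1.07 reads of miR-128-2 with Sa2, below the other 7 libraries, where the number lay between 1.21 and 1.85. The part of these depths in the indel share was not tested.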

How the data were processed

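Amplicons of genomic DNA from sorted nuclei were sequenced in 8 libraries, 1 per group. The submitters' processing notes name bcl2fastq and cutadapt. The deposited values are read counts, per the file headers: a histogram of mutations per read and a list of mutated sequences with their read counts, for each amplicon and direction. An aligner, its settings and a genome build are not given in the sources used here. The authors also deposited other values such as percent columns, per the file headers, which were not used.

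Of 32 blocks (amplicon and direction) per file, 26 were used in both libraries; 4 held no reads and 2 had over 90% of reads beyond the limit. Listed events were placed on the expected sequence (520 of 445542 sequences, in all libraries, could not be placed and count as reads without an indel). A read name is listed for each distinct mutated sequence, and no such name was listed in both directions. Other reads have no listed name, so overlap between directions was not checked for them. Fisher's exact test and the Benjamini-Hochberg adjustment were run with Python 3.11.15, numpy 2.4.6, pandas 2.3.3 and scipy 1.17.1, drawn with matplotlib 3.10.9 and tested on simulated data. P-values under 1e-300 were written as that. Where no read was found, the limit is the share of 3 reads. Reads were not collapsed by molecular identifier.

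Every targeted locus is named, of the other loci those with the lowest or highest difference or an unadjusted p under 0.05, and of alleles the 10 with most reads at miR-128-2 and the 3 with most at each other targeted locus. Others (chr10-114394356, chr3-70303938 and chr18-57173043, alleles 11 to 13, the substitutions) were named after their values were seen. The loci, the rules and the alternatives were chosen with earlier results of these data known.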

Additional observations from a re-analysis of the deposited data

Results flagged for a closer look

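The Cas9-negative library with guide Sa2, whose alleles are given above, reached an indel share of 1.84% at miR-128-2 (1847 of 100118 reads, 95% Wilson interval 1.76 to 1.93%). The Cas9-negative library without a guide had 0.0059% (9 of 151938 reads). Of the 1847 indel reads with Sa2, 1808 (97.9%) were allele 5. At each of the other 14 loci the Cas9-negative library with Sa2 differed from its control by less than 0.1 points or lay below it. Reads beyond the mutation limit hold no listed sequence, and their share in the Cas9-positive library with Sa2 lay above the library without a guide at 3 loci by an interval of the difference that does not reach 0. It was 10.6% at miR-128-2 (6.86 points higher, 6.59 to 7.12), 20.4% at chrX-37055312 (2.45 points higher, 0.322 to 4.57) and 6.14% at chr3-70303938 (0.174 points higher, 0.026 to 0.322). At miR-124-3 (-2.40 points, -3.83 to -1.28) and chr18-57173043 (-9.98 points, -12.0 to -8.03) it lay below.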

How the results depend on the processing

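No paired analysis was possible because each group has 1 library. Leaving out a library was not possible for the same reason. Over 14 results, 143 values were recomputed: 104 kept direction (or their count or a difference of 0) and side of the threshold, 8 differences went to 0 and 2 left 0 without a call, 16 reversed, 4 became weaker, 1 stronger and 8 moved. The difference at miR-128-2 lay between 65.2 points (indels of at least 2 bases) and 94.3 points (reads beyond the limit left out) under 12 alternatives, each with an adjusted p of 1e-300 (Fisher's exact test). With reads beyond the limit counted as indels, 3 loci passed instead of 1, and 2 instead of 0 outside miR-128: miR-124-3 (-2.40 points) and chr18-57173043 (-9.98 points), both lower with Sa2; miR-124-1 turned to 0.232 points and miR-124-2 to 0.152. With substitutions counted as indels, 2 loci passed, 1 of them outside miR-128, chrX-37055312, which turned to -3.81 points; chr17-49055768 turned to 0.505 and chr2-134788648 to 0.038. With reverse reads alone, miR-128-1 turned to -0.00086 points, miR-124-2 to 0.0031 and chrX-37055312 to -0.150. With indels of at least 2 bases, miR-124-1 turned to 9.6e-05 points, and chr17-49055768 and chrX-37055312 went to 0. With entries of at least 10 reads, miR-128-1, the miR-124 genes, chr17-49055768, chrX-37055312 and chr2-134788648 had a difference of 0. Against guide Sa1, miR-124-2 turned to 0.00093, chrX-37055312 to -0.087 and chr2-134788648 to 0.0013 points; against the Cas9-negative library without a guide, miR-124-2 turned to 0.0033 and chrX-37055312 to -0.0094. The substitution difference at miR-128-1 turned to -0.163 points with forward reads alone and -0.555 against guide Sa1. That at chrX-37055312, whose alternatives were chosen after the data were seen, lost its call under 4 of 6. The deletion share at miR-128-2 was 96.8% in forward and 96.4% in reverse reads, 96.9% with entries of at least 10 reads and 100% with indels of at least 2 bases, since each insertion counted was of 1 base. Indels longer than the limit are not listed, depth at chr10-114394356 allows differences up to 0.866 points, and the causes of these moves were not tested.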
